A study of Mus musculus with 6 samples.

Results

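The genes described here are those of Z-disc and titin-linked proteins, namely TTN, NEB, LDB3, MYOZ1, MYOZ2, MYOT, TCAP, CSRP3 and ANKRD1. They were chosen by name as a list of 9 genes, and every probe whose target name in the deposited table is on this list, ignoring case, was kept and tested separately. This gave 31 of 45281 probes, in a table of 30854 target names. TTN had 12 probes, LDB3 had 6, CSRP3 had 3, and MYOZ2, MYOT, TCAP and ANKRD1 had 2 each, while MYOZ1 and NEB had 1 each.

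The Z-disc is the border of the sarcomere, where actin filaments from both sides are crosslinked by alpha-actinin. Titin, the giant elastic protein encoded by TTN, runs from the Z-disc to the M-band and is capped at its Z-disc end by telethonin (TCAP), while nebulin (NEB) lies along the thin filament. Around this core sit adaptors that bind alpha-actinin or filamin (LDB3, MYOZ1, MYOZ2 and MYOT) and proteins that also act in the nucleus when muscle is stretched or stressed (CSRP3 and ANKRD1).

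All samples came from 1 cell line, mouse C2C12, whose myoblasts fuse when serum is lowered. Myoblasts in growth medium with 10% serum received 60 nM of scramble siRNA (the Scramble group, 3 arrays) or of DJ-1 siRNA (the siDJ-1 group, 3 arrays), were moved 48 h later to medium with 2% horse serum, and were harvested after 96 h of differentiation (4 days). Each group had 1 siRNA treatment, so the loss of *Dj1* and any other effect of that siRNA cannot be told apart. The labels mark the 3 samples of a group as replicates without stating how separate their cultures were, so p-values measure only the spread between these samples, which may be technical.

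The target of the knockdown was read first, as a check of the labels. *Dj1* is listed as Park7 (ILMN_2728754), and its deposited signal, the mean brightness over a probe's beads, was 12019.5, 10900.4 and 12251 on Scramble arrays 1 to 3 and 5935, 6586 and 4234 on siDJ-1 arrays 1 to 3. All siDJ-1 arrays lay below all Scramble arrays. On the log2 scale after background correction and quantile normalization the change was -1.16 (standard error, SE, 0.14, limma's adjusted p = 0.00344), with the lowest signal on siDJ-1 3.

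After *Dj1* knockdown, most of the Z-disc genes that could be measured had lower signal. Of the 31 probes, 21 passed the filter (detection p under 0.05 on at least 3 of 6 arrays) and 10 did not, 6 of these being detected on no array. At limma's adjusted p under 0.05, called from here on, 11 of the 21 were lower, against 13.6% of all 17890 tested probes, and 3 were higher, against 16.5%. Together 14 of 21 were called, against 30.1% of all tested probes. On the normalized scale the groups of 3 arrays did not overlap for 15 of the 21 (12 lower, 3 higher), against 48.5% of all. The median log2 fold change was -0.41 for these 21 probes and 0.05 for all tested probes, and with no filter the median was -0.16 for all 31. No probe had passed through 1 group alone, and 18 of the 21 were detected on every array. In bulk samples such as these, fewer cells of a type and less RNA per cell cannot be told apart.

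By gene, 6 of the 9 had probes called lower only (TCAP, MYOZ1, MYOZ2, MYOT, LDB3 and ANKRD1). CSRP3 had a probe called higher only, TTN had probes called in both directions, and NEB had no probe that could be tested. No share of all genes stands beside these counts, so they only describe the listed genes. With an array left out, fewer probes were called on the whole array. Fewer listed probes were called too, except without Scramble 1, where 16 were called against 14. With siDJ-1 3 left out, 6 of the 21 probes were lower, against 7.05% of all tested probes, and with siDJ-1 1 left out, 7 were, against 6.55%. With Scramble 2, siDJ-1 1, siDJ-1 2 or siDJ-1 3 left out, 1 probe was called higher, against 11.8%, 7.78%, 11.8% and 8.14% of all. Of the 14 calls, 13 were kept without Scramble 1, 10 without Scramble 2, Scramble 3 or siDJ-1 2, 8 without siDJ-1 1 and 7 without siDJ-1 3. Without the filter 8 of the 14 calls were kept, with 7 probes lower and 1 higher, against 3.56% and 4.21% of all 45281 probes. By an unmoderated t-test 9 were kept, with 7 probes lower, against 9.39% of all tested probes.

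**Figure D1:**
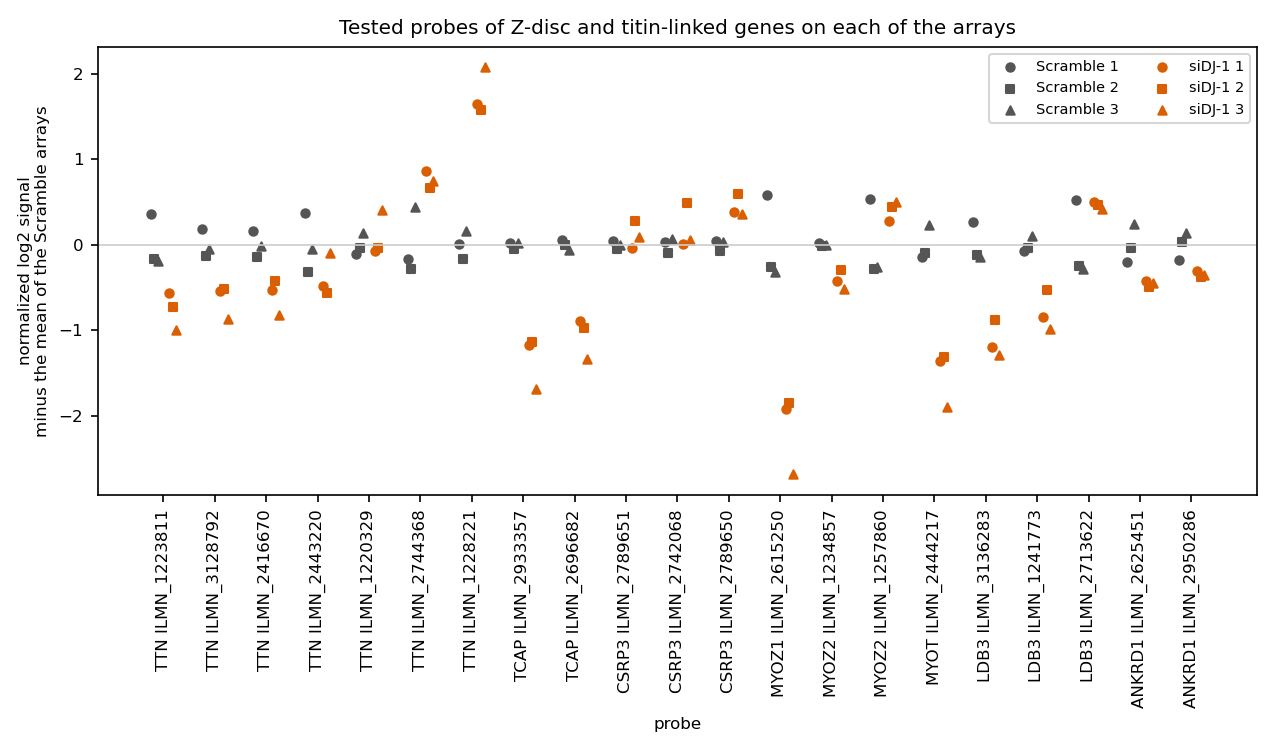
Normalized log2 signal of the 21 tested probes of the Z-disc and titin-linked genes on each of the 6 arrays, with the Scramble mean of the probe subtracted, for 3 Scramble and 3 siDJ-1 arrays. Most probes lie below 0 on the siDJ-1 arrays, those of MYOZ1 and MYOT far below, while the TTN probe ILMN_1228221 lies far above 0 on all 3.

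Titin is the member with the most probes. Of its 12, 7 were tested, 3 were lower (ILMN_2416670, ILMN_3128792 and ILMN_1223811), 2 were higher (ILMN_1228221 and ILMN_2744368) and 2 were not called. The window of 250 bases before the start of Ttn is shown because it carries a MEF2 site, the motif of a factor family that drives many muscle genes. It is taken from RefSeq, build GRCm38.p6, minus strand, chr2:76982548-76982797. Capitals mark matches to the motifs that were searched on both strands, which were the E-box (CANNTG), its form CAGCTG, the M-CAT motif of TEAD factors, the MEF2 site and the CArG box.
Ttn promoter: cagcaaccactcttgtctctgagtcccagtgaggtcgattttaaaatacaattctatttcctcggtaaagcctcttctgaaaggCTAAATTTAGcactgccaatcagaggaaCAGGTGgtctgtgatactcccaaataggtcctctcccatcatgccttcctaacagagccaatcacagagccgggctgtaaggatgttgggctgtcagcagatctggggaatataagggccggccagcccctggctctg
The MEF2 match began 166 bases and the E-box 138 bases before the start. Of 32851 RefSeq promoter windows of this length, 2.92% held a MEF2 site, 66.2% an E-box, 13.0% CAGCTG, 12.6% the M-CAT motif and 1.47% a CArG box. Such a match is a run of letters, not a shown binding site. Of the 9 genes, 5 had an entry among the windows used here, with 7 entries in all. For TCAP, NEB, MYOZ1 and MYOT no window was used.

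Probe ILMN_2416670 of TTN read 5788, 4840.3 and 5028 in Scramble and 3697, 4406 and 2729 in siDJ-1 myotubes. For ILMN_3128792 the signals were 5895, 4871 and 4921 in Scramble and 3692, 4128 and 2640.1 in siDJ-1 myotubes. ILMN_1223811 gave 3127, 2217 and 2084 against 1709, 1707 and 1130.3. On each of the 3, every siDJ-1 array was below every Scramble array, and siDJ-1 3 was the lowest. Their log2 fold changes were -0.59 (SE 0.14, adjusted p = 0.0231), -0.64 (0.14, 0.0180) and -0.76 (0.19, 0.0256), so that 66.4%, 64.1% and 58.9% of the Scramble signal was left. The call of ILMN_2416670 was lost without Scramble 3 (adjusted p = 0.0552), siDJ-1 1 (0.0662) or siDJ-1 3 (0.0671), with no filter on dim probes (0.0510) or by an unmoderated t-test (0.0624), with adjusted p from 0.000504 to 0.826 over its alternatives. For ILMN_3128792 it was lost without siDJ-1 3 (adjusted p = 0.0546) or by an unmoderated t-test (0.0546), with a range of 0.000280 to 0.826, and for ILMN_1223811 without siDJ-1 1 (adjusted p = 0.0502), siDJ-1 2 (0.0623) or siDJ-1 3 (0.0852), with no filter on dim probes (0.0556) or by an unmoderated t-test (0.0823), with a range of 0.000816 to 0.826. As the mean of the 7 tested TTN probes the value was 0.04 (adjusted p = 0.826), above zero.

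The TTN probe ILMN_1228221 went the other way. Its deposited signal was 831, 748 and 850.4 in Scramble and 2229, 2352 and 2621 in siDJ-1 myotubes. The groups lay far apart, with the lowest siDJ-1 array more than 1300 units above the highest Scramble array. The log2 fold change was 1.77 (SE 0.16, 95% confidence interval 1.38 to 2.16, adjusted p = 0.00277), or 340.5% of the Scramble signal. This call was kept in 15 of 16 alternatives and was lost as the mean of the gene's tested probes (adjusted p = 0.826), with a range of 8.10e-07 to 0.826. The name TTN comes for this probe from the deposited table alone, since it did not match the RefSeq gene table, and the same holds for ILMN_2416670, ILMN_2744368 and ILMN_1220329. Which part of the titin transcript each probe reads was not analysed here.

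To see whether probes of 1 gene moved by different amounts, the within-array difference of each pair of tested probes was fitted in the same way. Across the array, 190 of 6780 pairs from 3527 genes differed (2.80%) at limma's adjusted p under 0.05, and in 54 of these pairs, from 31 genes, both probes were called and in opposite directions. Among the listed genes 9 of 30 pairs differed, 8 of them in TTN and 1 in LDB3, and without background correction 16 of 30 did, against 749 of 6780. Pairs that share a probe are not independent, so a count of pairs is not a count of separate results. TTN gave 21 of the 30 pairs, and all 8 called TTN pairs held ILMN_1228221 or ILMN_2744368. ILMN_1228221, singled out after its values were seen, had a log2 fold change above that of each of the other 6 TTN probes, and 5 of these 6 differences were called. The difference in log2 fold change was 2.53 from ILMN_1223811 (adjusted p = 0.0110), 2.41 from ILMN_3128792 (0.00886), 2.36 from ILMN_2416670 (0.00925), 2.15 from ILMN_2443220 (0.00653) and 1.67 from ILMN_1220329 (0.00653). Against ILMN_2744368, which was detected on 1 Scramble array, the difference was not called (adjusted p = 0.0552). With siDJ-1 1 left out, the first 3 of these each missed the threshold (adjusted p = 0.0525, with 4.25e-05, 2.87e-05 and 2.87e-05 as the lowest over the alternatives). Over all listed genes, 2 pairs were called without siDJ-1 1 and 5 without siDJ-1 3, while across the array the 190 pairs became 76 without Scramble 2, 66 without Scramble 3, 16 without siDJ-1 1, 43 without siDJ-1 2 and 27 without siDJ-1 3.

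**Figure D2:**
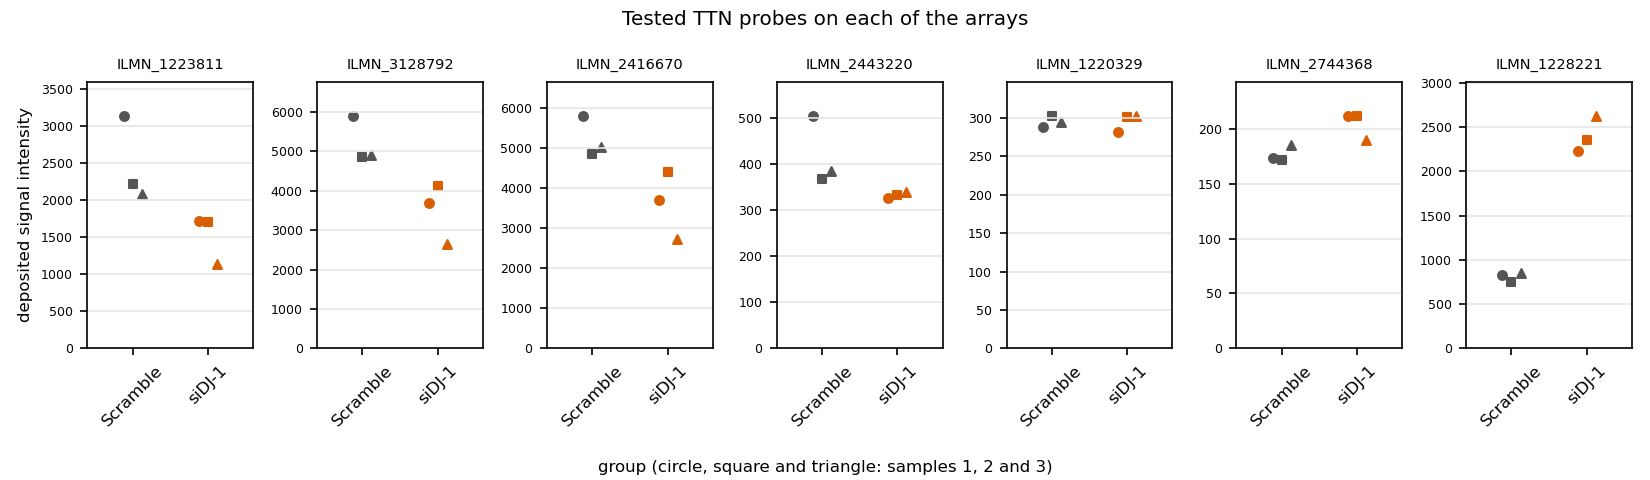
Deposited signal of the 7 tested TTN probes on each of the 3 Scramble and 3 siDJ-1 arrays, each panel with its own linear axis from 0. ILMN_2416670, ILMN_3128792 and ILMN_1223811 are lower on all siDJ-1 arrays, whereas ILMN_1228221 rises to 2229, 2352 and 2621 and the remaining probes show smaller differences.

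Of the other TTN probes, ILMN_2744368 lay near background. It read 174, 172 and 185 on the Scramble arrays, where it was detected on 1 of 3, and 212, 212 and 189.7 on the siDJ-1 arrays, where it was detected on all 3. The groups did not overlap, and the fitted change was 0.76 (SE 0.20, adjusted p = 0.0309), an uncertain size because most Scramble values were at background. The value was between 0.24 and 0.26 without background correction. This call was lost without Scramble 1 (adjusted p = 0.0682), Scramble 2 (0.0782), siDJ-1 1 (0.1002), siDJ-1 2 (0.0643) or siDJ-1 3 (0.0889), with no filter on dim probes (0.0670), by an unmoderated t-test (0.0943) or as the mean of the gene's tested probes (0.826), with a range of 0.0116 to 0.826. The remaining 3 TTN pairs that differed all held this probe. They set it against ILMN_1223811 (adjusted p = 0.04999), ILMN_2416670 (0.0383) and ILMN_3128792 (0.0372), and no size is given for them because it was undetected on 2 of 3 Scramble arrays. Without Scramble 1, Scramble 2, siDJ-1 1, siDJ-1 2 or siDJ-1 3, the adjusted p of the first became 0.0681, 0.119, 0.162, 0.124 or 0.188 (range 0.00293 to 0.188). In the same order the second had 0.0667, 0.0992, 0.153, 0.0798 or 0.157 (range 0.00222 to 0.157) and the third 0.0610, 0.0966, 0.143, 0.0831 or 0.151 (range 0.00167 to 0.151). ILMN_2443220 gave 503, 366 and 385 in Scramble and 326, 333 and 339 in siDJ-1 myotubes, and ILMN_1220329 gave 288, 302 and 295 and 282, 302 and 302. Neither passed the test, with log2 fold changes of -0.38 (-0.88 to 0.12, adjusted p = 0.212) and 0.10 (-0.27 to 0.47, 0.666), the 95% confidence interval being given first, and on the normalized scale their groups overlapped, although the deposited values of ILMN_2443220 did not. With 1 array left out the former ran from -0.54 to -0.20, the smallest without Scramble 1, and it was -0.25 without background correction, while the latter ran from -0.05 (without siDJ-1 3) to 0.18. Of the 5 untested TTN probes, ILMN_1226700, ILMN_2499436 and ILMN_1231542 were detected on no array, ILMN_1219166 on 1 array of each group and ILMN_1233441 on 1 siDJ-1 array.

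Telethonin, which links a pair of titin ends at the Z-disc, fell on both of its probes. ILMN_2933357 of TCAP read 3466, 3302 and 3298 in Scramble and 1583, 1778 and 1001 in siDJ-1 myotubes. ILMN_2696682 read 9438, 9294 and 8594 and 5035, 5256 and 3350.2. The Scramble values lay close together on both probes, all siDJ-1 values lay below them, and siDJ-1 3 was lowest. Expressed as log2 fold change, ILMN_2933357 fell by 1.33 (SE 0.16, adjusted p = 0.00365) and ILMN_2696682 fell by 1.07 (SE 0.14, adjusted p = 0.00404), leaving 39.8% and 47.7% of the Scramble signal. Both calls were kept in all 16 alternatives, with values from -1.43 to -1.15 and from -1.20 to -0.93. The -1.20 is the mean of both probes, and with 1 array left out ILMN_2696682 ran from -1.16 to -0.93. The difference between the 2 probes was 0.26 (adjusted p = 0.373) and was not called.

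Nebulin, which lines the thin filament and helps to set its length, could not be followed. Its single probe, ILMN_1235161, read 153, 157 and 148 in Scramble and 144, 159 and 140.5 in siDJ-1 myotubes and was detected on none of the 6. The values of both groups overlapped, and no fold change is given for NEB.

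LDB3, also known as ZASP or Cypher, is a PDZ and LIM domain protein that binds alpha-actinin at the Z-disc. Its promoter window is shown for its CArG box, the motif of serum response factor (RefSeq, GRCm38.p6, minus strand, chr14:34588682-34588931).
Ldb3 promoter: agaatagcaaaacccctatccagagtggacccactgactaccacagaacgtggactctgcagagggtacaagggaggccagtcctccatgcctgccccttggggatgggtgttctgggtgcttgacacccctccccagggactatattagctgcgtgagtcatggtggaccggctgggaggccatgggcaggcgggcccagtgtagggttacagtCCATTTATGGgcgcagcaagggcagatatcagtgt
The CArG match lay 35 bases before the start, or 109 bases before it in the second Ldb3 entry, and no other motif was matched in either window. ILMN_3136283 read 645, 534 and 491 in Scramble and 309.8, 377 and 267 in siDJ-1 myotubes, and ILMN_1241773 read 467, 478 and 476 and 315, 383 and 268. On both, all siDJ-1 arrays were below all Scramble arrays, siDJ-1 2 being the nearest to them. ILMN_3136283 fell by 1.12 in log2 (SE 0.17, adjusted p = 0.00557) and ILMN_1241773 fell by 0.78 (0.14, 0.00933). These calls were kept in all 16 alternatives, with values from -1.24 to -0.48 for the former and from -0.91 to -0.48 for the latter. In both, the -0.48 is the mean of the gene's tested probes. With 1 array left out, the values ran from -1.24 to -0.99 and from -0.91 to -0.69.

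A further LDB3 probe, ILMN_2713622, gave 344, 263 and 238 in Scramble and 328, 343 and 284 in siDJ-1 myotubes. Scramble 1 was the highest of all 6 arrays and the other Scramble arrays were the lowest, so the groups overlapped. The log2 fold change was 0.46 (95% confidence interval -0.06 to 0.99, adjusted p = 0.158). It was called without Scramble 1 (adjusted p = 0.00797) or with array weights (0.0425), with a range of 0.00797 to 0.348. Without Scramble 1 its value was 0.73, and the mean of the 3 tested LDB3 probes was -0.48 (adjusted p = 0.0397). The change of this probe exceeded that of ILMN_3136283 by 1.58 on the log2 scale (adjusted p = 0.0110, values from 0.99 to 1.71), a difference no longer called without siDJ-1 1 (0.0731) or siDJ-1 3 (0.0669), with a range of 0.000171 to 0.0731. Against ILMN_1241773 the adjusted p of the difference was 0.0691. Of the 3 untested LDB3 probes, ILMN_1250896 was detected on no array, ILMN_2513993 on 1 siDJ-1 array and ILMN_3071312 on 1 array of each group.

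MYOZ1, MYOZ2 and MYOT encode adaptors of the Z-disc. Myozenins, also called calsarcins, bind alpha-actinin and filamin and tether calcineurin, MYOZ1 being the fast-fibre form and MYOZ2 the slow-fibre and cardiac form. Myotilin (MYOT) binds alpha-actinin, filamin and actin. With background correction MYOZ1 and MYOT had the largest fitted falls among the 21 tested probes, and without it the TCAP probes did.

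The MYOZ1 probe ILMN_2615250 read 459.6, 319.7 and 286 in Scramble and 186, 196 and 149.8 in siDJ-1 myotubes. All siDJ-1 values were below all Scramble values, and siDJ-1 3 was not detected. The fitted log2 fold change was -2.15 (SE 0.32, 95% confidence interval -2.90 to -1.40, adjusted p = 0.00553). It was called in all 15 alternatives that kept it, but its size depended on the background correction, as the values ran from -2.31 to -0.93, the smallest falls coming without background correction.

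MYOT was measured by ILMN_2444217 at 301, 312 and 327 in Scramble and 199, 212 and 166 in siDJ-1 myotubes. The groups were well separated and detected on all 6 arrays. The log2 fold change was -1.52 (SE 0.19, adjusted p = 0.00374), with 34.9% of the Scramble signal left, and it was called in all 15 alternatives that kept it, with values from -1.62 to -0.66. The second MYOT probe, ILMN_2478649, was detected on no array.

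MYOZ2 changed less. Its promoter window is shown because a MEF2 site and E-boxes lie close to the start (RefSeq, GRCm38.p6, minus strand, chr3:123034988-123035237).
Myoz2 promoter: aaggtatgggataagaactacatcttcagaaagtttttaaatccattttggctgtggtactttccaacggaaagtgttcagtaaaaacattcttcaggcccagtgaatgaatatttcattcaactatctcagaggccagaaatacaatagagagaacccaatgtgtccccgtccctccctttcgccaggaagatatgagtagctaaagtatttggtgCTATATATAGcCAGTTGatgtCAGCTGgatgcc
The MEF2 match began 33 bases before the start and the E-boxes 22 and 12 bases before it, the latter of the form CAGCTG. ILMN_1234857 of MYOZ2 read 5415, 5420.2 and 5176 in Scramble and 4084, 4941 and 3432 in siDJ-1 myotubes. The groups did not overlap, with siDJ-1 2 nearest to the Scramble values and siDJ-1 3 lowest. Its log2 fold change was -0.41 (SE 0.10, adjusted p = 0.0233). The call was lost without Scramble 2 (adjusted p = 0.0552), Scramble 3 (0.0568), siDJ-1 1 (0.0858) or siDJ-1 3 (0.0774), with a 75th percentile shift in place of quantile normalization (0.0867), with no filter on dim probes (0.0538) or as the mean of the gene's tested probes (0.993), with a range of 0.000617 to 0.993. The other probe, ILMN_1257860, named by the deposited table alone, gave 194, 161 and 148 and 176, 189 and 172 and was detected on 1 Scramble and 3 siDJ-1 arrays. Its groups overlapped, and it was not called (adjusted p = 0.221), except without Scramble 1 (adjusted p = 0.0121), with a range of 0.0121 to 0.993. No size is given because most Scramble values were at background. The mean of both MYOZ2 probes was -0.002 (adjusted p = 0.993). The changes of these 2 probes were not called different (adjusted p = 0.138).

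CSRP3, the muscle LIM protein, binds telethonin and alpha-actinin and also acts as a cofactor of myogenic factors in the nucleus. It is the only listed gene whose called probes were higher alone. The window of its first RefSeq entry is shown for its 4 E-boxes (GRCm38.p6, minus strand, chr7:48848052-48848301).
Csrp3 promoter: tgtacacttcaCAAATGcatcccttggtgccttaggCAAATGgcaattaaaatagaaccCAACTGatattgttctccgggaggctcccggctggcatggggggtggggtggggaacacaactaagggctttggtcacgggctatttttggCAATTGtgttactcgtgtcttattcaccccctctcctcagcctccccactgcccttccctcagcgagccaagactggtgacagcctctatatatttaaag
The E-boxes began 239, 214, 191 and 100 bases before the start, and the second Csrp3 entry also held 4. ILMN_2789650 read 5065, 4824 and 4929 in Scramble and 6534, 8387 and 5831 in siDJ-1 myotubes, ILMN_2742068 read 4312, 4019.8 and 4271 and 4351, 6594 and 3978, and ILMN_2789651 read 2339, 2189.9 and 2152 and 2222, 3004 and 2137. The siDJ-1 2 array was the highest of the 6 on all 3 probes, and the groups were apart only on ILMN_2789650. That probe rose by 0.45 in log2 (SE 0.11, adjusted p = 0.0231), while ILMN_2742068 was at 0.19 (95% confidence interval -0.17 to 0.55, adjusted p = 0.383) and ILMN_2789651 at 0.11 (-0.15 to 0.38, 0.475). None of the 3 pairs of these probes was called by limma, 1 had an unadjusted p under 0.05 (0.0297), and no second tool was run on pairs. The call of ILMN_2789650 was lost without Scramble 2 (adjusted p = 0.0655), Scramble 3 (0.0511), siDJ-1 1 (0.0654), siDJ-1 2 (0.0622) or siDJ-1 3 (0.0525), with no filter on dim probes (0.0526) or as the mean of the gene's tested probes (0.147), with a range of 0.000471 to 0.147. With siDJ-1 2 left out, ILMN_2742068 stood at 0.04 and ILMN_2789651 at 0.03.

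ANKRD1, or CARP, is an ankyrin repeat protein that binds titin's spring region and moves to the nucleus, and it is a known target of the YAP and TEAD factors. Its window is shown for matches to M-CAT, the motif of TEAD factors (RefSeq, GRCm38.p6, minus strand, chr19:36119845-36120094).
Ankrd1 promoter: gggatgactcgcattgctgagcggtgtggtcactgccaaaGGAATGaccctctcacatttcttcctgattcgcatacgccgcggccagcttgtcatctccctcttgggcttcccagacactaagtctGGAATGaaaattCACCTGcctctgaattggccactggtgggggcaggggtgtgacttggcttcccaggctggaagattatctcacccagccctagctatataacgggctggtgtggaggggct
M-CAT was matched on the other strand at 210 and 123 bases before the start, and an E-box at 111 bases. ILMN_2625451 read 8050.0, 9257 and 10548 in Scramble and 7106, 7559.6 and 6325 in siDJ-1 myotubes, and ILMN_2950286 read 16156, 19753 and 19714 and 15807, 16494 and 13949.8. For ILMN_2625451 the groups did not overlap. For ILMN_2950286 the deposited values overlapped, as Scramble 1 was below siDJ-1 2, whereas the normalized ones did not. ILMN_2625451 was called lower at -0.45 (SE 0.13, adjusted p = 0.0428), and ILMN_2950286 was at -0.35 (95% confidence interval -0.62 to -0.08, adjusted p = 0.0569). The first call was lost without Scramble 2 (adjusted p = 0.0843), Scramble 3 (0.0863), siDJ-1 1 (0.109), siDJ-1 2 (0.107) or siDJ-1 3 (0.111), with a 75th percentile shift in place of quantile normalization (0.164), with no filter on dim probes (0.0946) or by an unmoderated t-test (0.0837), with a range of 0.00161 to 0.164. The second probe was called without Scramble 1 (adjusted p = 0.0278), without background correction (0.0132), with the strict filter (0.0313), with a trend in the prior variance (0.00215), with array weights (0.0314) or as the mean of the gene's tested probes (0.0404), with a range of 0.00215 to 0.408 and values from -0.43 to -0.16.

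**Figure D3:**
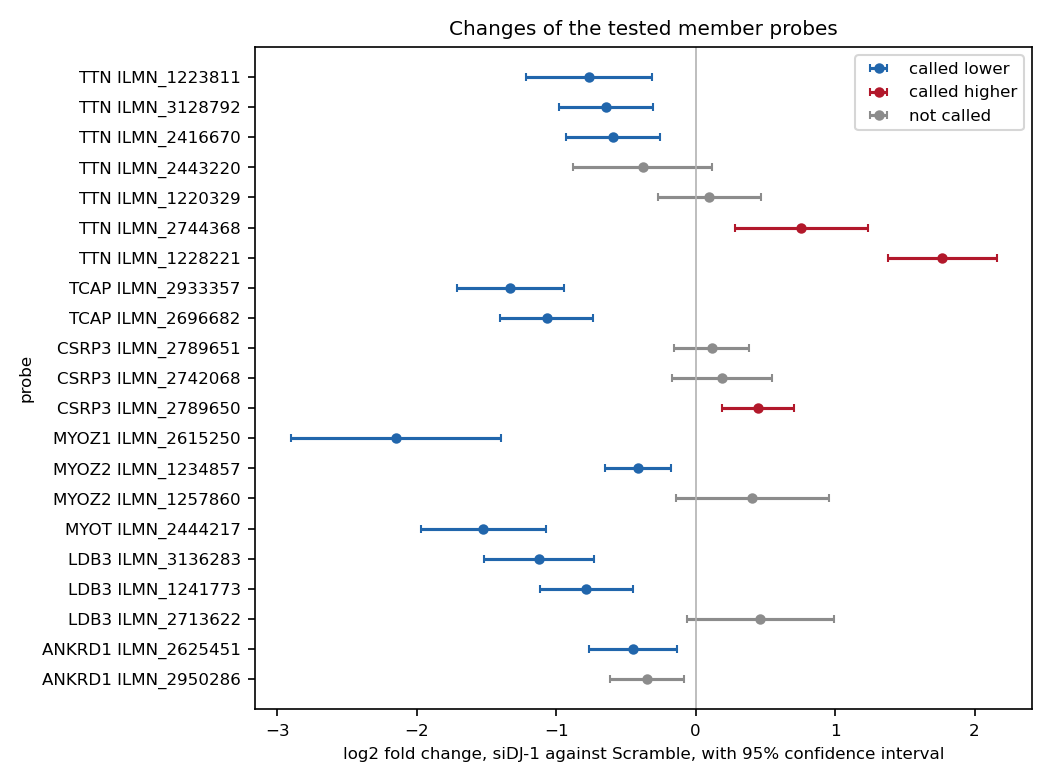
Log2 fold change of siDJ-1 against Scramble with its 95% confidence interval for the 21 tested probes of the Z-disc and titin-linked genes. MYOZ1, MYOT and TCAP lie at -2.15, -1.52 and -1.33 (with -1.07 for the second TCAP probe), CSRP3 ILMN_2789650 at 0.45 and TTN ILMN_1228221 at 1.77.

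The 3 siDJ-1 arrays did not carry the falls evenly. Counted on the normalized scale after the values were seen, the lowest siDJ-1 array was siDJ-1 3 for 10 of the 11 probes called lower and siDJ-1 2 for 1, and the highest was siDJ-1 2 for 8 and siDJ-1 1 for 3. The same count over all probes called lower was not made, so these numbers only describe the listed probes. The deposited Park7 signal was also lowest on siDJ-1 3 and highest on siDJ-1 2. Normalized, Park7 stood at 12.48, 12.49 and 12.15 in log2 on siDJ-1 arrays 1 to 3, so siDJ-1 1 and siDJ-1 2 were nearly equal. Averaged over the 21 tested probes, each first centred on its own mean, normalized log2 signal was 0.29, 0.05 and 0.18 on Scramble arrays 1 to 3 and -0.16, -0.09 and -0.27 on siDJ-1 arrays 1 to 3. Among the probes outside the list whose normalized signal followed this mean most closely over the 6 arrays were those of Lyar (Pearson r = 0.998), Tle5 (0.996), Zfp644 (0.995) and Arl2bp (0.995), where the 6 points share the group difference and no p is given. Their log2 fold changes were -0.45 (adjusted p = 0.0382), -0.20 (0.148), -0.59 (0.0210) and -0.48 (0.0213), so that Tle5 was not called. It was called with a trend in the prior variance (adjusted p = 0.0358), with a range of 0.0358 to 0.621 and values from -0.23 to -0.07. The call was lost for Lyar without Scramble 1 (adjusted p = 0.0789), Scramble 3 (0.0860), siDJ-1 1 (0.107), siDJ-1 2 (0.0519) or siDJ-1 3 (0.119), with a 75th percentile shift in place of quantile normalization (0.0550), with no filter on dim probes (0.0852) or by an unmoderated t-test (0.0749), with a range of 0.0110 to 0.119, and for Zfp644 without Scramble 3 (adjusted p = 0.0576), siDJ-1 1 (0.0738) or siDJ-1 3 (0.0746) or by an unmoderated t-test (0.0583), with a range of 0.00203 to 0.0746. For Arl2bp it was lost without Scramble 3 (adjusted p = 0.0539), siDJ-1 1 (0.0734) or siDJ-1 3 (0.0736), with a range of 0.00687 to 0.0736.

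Several listed probes were dim, and array quality differed between the groups. Of the 31 probes, 21, 20 and 20 were detected on Scramble arrays 1 to 3 and 22 on each siDJ-1 array. Across the array detection reached 16985, 17399 and 18179 probes for Scramble 1 to 3 and 18704, 18857 and 18408 for siDJ-1 1 to 3, and the median of the bead standard errors came to 11.3, 8.30 and 8.66 against 7.17, 6.36 and 5.88. What part these differences had in the fold changes of dim probes such as TTN ILMN_2744368, MYOZ1 and MYOZ2 ILMN_1257860 was not tested.

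Of the genes whose proteins partner the listed ones at the Z-disc, several were lower as well. Alpha-actinin 2, the main crosslinker, was lower on both Actn2 probes, ILMN_2764727 at -1.12 (adjusted p = 0.0226) and ILMN_2797061 at -1.03 (0.0390). Their deposited signals were 8899.8, 7462 and 7936 in Scramble and 3711, 6345 and 2465 in siDJ-1 myotubes, and 3956, 3035 and 3530.4 and 1837, 2903 and 1069.5, again with siDJ-1 2 nearest to the Scramble values. The fast-fibre form Actn3 was lower on its 3 probes ILMN_3008110, ILMN_2708303 and ILMN_2747543 (-0.45, -0.41 and -0.48, adjusted p = 0.0172, 0.0407 and 0.0202). Desmin (Des), the intermediate filament that ties Z-discs together, was at -0.56 (adjusted p = 0.00760), and palladin (Palld) was lower on ILMN_1218247, ILMN_2431965 and ILMN_3092653 (-0.56, -0.61 and -0.80, adjusted p = 0.00667, 0.00740 and 0.00593), not called on ILMN_1259364 (-0.28, 0.270), and undetected on ILMN_1246642. Filamin C (Flnc), which myozenins and myotilin bind, was not called on ILMN_2618364 (-0.12, 95% confidence interval -0.33 to 0.09, adjusted p = 0.354), had a value of 0.04 with a 75th percentile shift in place of quantile normalization, and was undetected on ILMN_1212990 and ILMN_1260135. Myopalladin (Mypn) stood at -0.56 (adjusted p = 0.0634) on ILMN_2694687 and was undetected on ILMN_2719479. Nrap, an adaptor of new myofibrils, was at -0.23 and -0.26 on ILMN_3138732 and ILMN_1235070 (adjusted p = 0.133 and 0.133) and undetected on ILMN_3061287. No array detected the 3 Myoz3 probes ILMN_3081836, ILMN_1226637 and ILMN_3011346 or the Nebl probe ILMN_1218944.

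Several calls of these partners were lost under alternatives that were extended to them after the data were seen. Actn2 ILMN_2764727 lost its call without Scramble 1 (adjusted p = 0.0502), Scramble 3 (0.0564), siDJ-1 1 (0.0737) or siDJ-1 3 (0.0526) or by an unmoderated t-test (0.0854), with a range of 0.000378 to 0.0854, and ILMN_2797061 without Scramble 1 (adjusted p = 0.0845), Scramble 2 (0.0624), Scramble 3 (0.0899), siDJ-1 1 (0.1004) or siDJ-1 3 (0.0760), with a 75th percentile shift in place of quantile normalization (0.0529), with no filter on dim probes (0.0836) or by an unmoderated t-test (0.123), with a range of 0.00154 to 0.123. For Actn3 the loss came without siDJ-1 3 (adjusted p = 0.0595) on ILMN_3008110 (range 0.000457 to 0.0595), without Scramble 1 (adjusted p = 0.0622), Scramble 2 (0.105), Scramble 3 (0.0570), siDJ-1 1 (0.0898), siDJ-1 2 (0.0727) or siDJ-1 3 (0.121), with a 75th percentile shift in place of quantile normalization (0.0511), with no filter on dim probes (0.0913) or by an unmoderated t-test (0.0674) on ILMN_2708303 (range 0.0140 to 0.121) and without Scramble 2 (adjusted p = 0.0561), Scramble 3 (0.0566), siDJ-1 1 (0.0634) or siDJ-1 3 (0.0627) or with a 75th percentile shift in place of quantile normalization (0.0649) on ILMN_2747543 (range 0.000345 to 0.0649). Desmin lost it with a 75th percentile shift in place of quantile normalization (adjusted p = 0.0554), with a range of 8.67e-06 to 0.0554. Mypn gained a call without Scramble 2 (adjusted p = 0.0494), without background correction (0.0305), with a 75th percentile shift and no background correction (0.0281), with the strict filter (0.0358) or with a trend in the prior variance (0.0394), with a range of 0.0281 to 0.171, and Nrap ILMN_1235070 did so with a trend in the prior variance (adjusted p = 0.0464), with a range of 0.0464 to 0.330. The called Palld probes kept theirs throughout. Values ran from -0.60 to -0.32 for Des, from -0.70 to -0.33 for Mypn, from -0.31 to -0.16 for Nrap ILMN_1235070 and from -0.39 to -0.12 for Palld ILMN_1259364.

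Genes for proteins bound to titin's spring region and M-band moved in both directions. Calpain 3 (Capn3), a protease anchored on titin, was lower on its 3 probes ILMN_2771518, ILMN_2695626 and ILMN_2867771 (-0.85, -1.04 and -0.78, adjusted p = 0.00429, 0.00487 and 0.0258). Of the muscle ankyrin repeat proteins related to ANKRD1, Ankrd23 fell on ILMN_2741117 (-0.88, adjusted p = 0.00580), while Ankrd2 was higher on ILMN_2806065 at 0.44 (adjusted p = 0.0420). Trim63, the ubiquitin ligase MuRF1 that binds titin near the M-band, was higher on ILMN_3161060 at 0.60 (adjusted p = 0.0196). The call of Capn3 ILMN_2867771 was lost without Scramble 2 (adjusted p = 0.0659) or Scramble 3 (0.0616), with no filter on dim probes (0.0559) or by an unmoderated t-test (0.0832), with a range of 0.00347 to 0.0832. Ankrd2 lost its call without Scramble 1 (adjusted p = 0.0833), Scramble 2 (0.0714), Scramble 3 (0.0948), siDJ-1 1 (0.112) or siDJ-1 3 (0.112), with no filter on dim probes (0.0934) or by an unmoderated t-test (0.0787), with a range of 0.00864 to 0.112, and Trim63 without Scramble 2 (adjusted p = 0.0582), Scramble 3 (0.0562), siDJ-1 1 (0.0739) or siDJ-1 3 (0.0623) or by an unmoderated t-test (0.0555), with a range of 0.00339 to 0.0739. The other Capn3 probes and Ankrd23 kept theirs in every alternative run for them. Capn3 ILMN_2695626 was detected on 2 of 3 siDJ-1 arrays, and its value ran from -1.12 to -0.32, that of ILMN_2771518 from -0.93 to -0.55 and that of ILMN_2867771 from -0.90 to -0.44, the smallest falls coming without background correction.

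Lists of further genes of these pathways were read by counts, beside 13.6% of all tested probes lower, 16.5% higher and a median of 0.05. Of 37 tested probes for the Z-disc core and partners of alpha-actinin, 17 were lower and 1 was higher, with a median log2 fold change of -0.41 (-0.44 to -0.22 over the alternatives), and 16 further probes were not tested. Among the larger changes besides Actn2 were those in Xirp1, an actin-binding repeat protein (-1.28, adjusted p = 0.00277), and in Synpo2l, an actin-bundling Z-disc protein (-0.92, 0.0136). The higher probe was that of Pdlim4 (ILMN_2606162, 0.33, adjusted p = 0.0307), named after its value was seen. It lost its call without Scramble 2 (adjusted p = 0.0761), Scramble 3 (0.0722), siDJ-1 1 (0.103), siDJ-1 2 (0.0710) or siDJ-1 3 (0.0894) or with no filter on dim probes (0.0731), with a range of 0.000389 to 0.103, and Synpo2l did without siDJ-1 1 (adjusted p = 0.0542) or siDJ-1 3 (0.0514) or by an unmoderated t-test (0.0560), with a range of 0.00102 to 0.0560, whereas Xirp1 kept it. Of this list, 11 probes were lower without Scramble 3, 8 without siDJ-1 1, 7 without siDJ-1 3, 9 by an unmoderated t-test and 11 with a 75th percentile shift in place of quantile normalization. Of all tested probes, 9.79%, 6.55%, 7.05%, 9.39% and 11.9% were lower in the same order. Its median was -0.22 with no filter and -0.26 with the shift and no background correction, and the value of Synpo2l ran from -1.08 to -0.57. Actn2, Actn3, Flnc, Des, Myoz3, Mypn and Palld, given above, are part of this list.

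Of 23 tested probes for titin-linked sensors, proteases and M-band anchors, 13 were lower and 4 were higher, with a median of -0.52 (-0.55 to -0.32 over the alternatives), and 1 of the 23 had passed the filter through the Scramble arrays alone. Among the largest falls were those in Smpx, a small stretch-responsive muscle protein, on ILMN_2785679 (-1.88, adjusted p = 0.00310), and in Cmya5, also called myospryn, on ILMN_2677339 (-1.67, 0.0166, with values from -1.91 to -0.96). Deposited signal of Smpx ILMN_2785679 was 4234, 4126 and 4160.4 in Scramble and 1182, 1817 and 859 in siDJ-1 myotubes. Smpx ILMN_2591308 read 266, 230.2 and 255 in Scramble and 173, 163 and 158 in siDJ-1 myotubes and was detected on 1 of 3 siDJ-1 arrays, and Cmya5 ILMN_2706640 read 219.9, 215 and 189.9 and 157, 175 and 149.9 and was detected on all Scramble and on no siDJ-1 arrays. Both are among the 13 lower probes, without a size because siDJ-1 signal was at or near background, and nothing is read from the call of ILMN_2706640, which passed the filter through the Scramble arrays alone. The 4 higher probes were those of Ankrd2 and Trim63, given above with Capn3 and Ankrd23, and of Fhl2 (0.36, adjusted p = 0.0432) and Nbr1 (ILMN_1220889, 0.33, 0.0348), which were named after their values were seen. The other Nbr1 probe, ILMN_2664797, was not called (0.15, adjusted p = 0.765). Fhl2 lost its call without Scramble 1 (adjusted p = 0.0845), Scramble 2 (0.0735), Scramble 3 (0.0932), siDJ-1 1 (0.114), siDJ-1 2 (0.0598) or siDJ-1 3 (0.126) or with no filter on dim probes (0.0979), with a range of 0.00308 to 0.126, and Nbr1 without Scramble 1 (adjusted p = 0.0676), Scramble 2 (0.0777), Scramble 3 (0.0612), siDJ-1 1 (0.0970), siDJ-1 2 (0.0948) or siDJ-1 3 (0.0887), without background correction (0.0521), with a 75th percentile shift and no background correction (0.0922), with no filter on dim probes (0.0812) or with a trend in the prior variance (0.0994), with a range of 0.0172 to 0.0994 and values from 0.19 to 0.36. Cmya5 ILMN_2677339 lost it by an unmoderated t-test (adjusted p = 0.0745), with a range of 0.000288 to 0.0745. With Scramble 1 left out, 1 probe of this list was called higher, against 2870.0 of all 17890 tested probes, and with siDJ-1 2 left out, 2 were, against 11.8%. Without Scramble 2, Scramble 3, siDJ-1 1 or siDJ-1 3, limma called 0 higher, with 4 at p under 0.05 before adjustment and 0 passing an unmoderated t-test in each case.

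The nebulin family and thin filament length list, on which Nebl and Nrap stand, had 13 tested probes, with 1 lower, 1 higher and a median of -0.06. This median was -0.15 without siDJ-1 1, -0.13 without Scramble 3, -0.03 without Scramble 2 and 0.005 with a 75th percentile shift and no background correction. Leiomodin 3 (Lmod3), which nucleates actin in muscle, was lower (-0.97, adjusted p = 0.00720) in every alternative, and Klhl40, which stabilizes nebulin and Lmod3, was higher (0.39, 0.0369). With a trend in the prior variance 3 probes of this list were lower, against 16.9% of all tested probes. The Klhl40 call was lost without Scramble 1 (adjusted p = 0.0766), Scramble 2 (0.0929), siDJ-1 1 (0.0750), siDJ-1 2 (0.101) or siDJ-1 3 (0.106), with no filter on dim probes (0.0838) or by an unmoderated t-test (0.0539), with a range of 0.00520 to 0.106.

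Because myozenins tether calcineurin, its pathway was read too. Of 22 tested probes for calcineurin and NFAT, 1 was lower and 4 were higher, with a median of 0.19 (0.09 to 0.24 over the alternatives), 2 of the 22 having passed through the siDJ-1 arrays alone. Of the regulators of calcineurin, 3 probes rose, Rcan2 at 1.13 (adjusted p = 0.00590) and Rcan3 at 0.52 (0.0123) on ILMN_2732695 and 0.51 (0.0499) on ILMN_2823269, which was named after its value was seen. Not called were Rcan2 ILMN_3033007 (0.23, adjusted p = 0.711), Rcan2 ILMN_1212612 (0.59, 0.105) and Rcan1 ILMN_2701991 (-0.24, 0.156), the last with groups apart. Of the Nfatc1 probes, ILMN_1224430 was detected on no Scramble (167, 155 and 149) and on all siDJ-1 arrays (196, 200.3 and 165). It is 1 of the 4 higher probes, but it passed the filter through the siDJ-1 arrays alone, so nothing is read from its call. ILMN_1216522 (-0.28, 0.223), ILMN_2648455 (-0.26, 0.375) and ILMN_2648704 (0.717, detected on 1 Scramble array) were not called. These Rcan and further Nfatc1 probes were added after their values were seen. Nfatc4 was lower (-0.55, 0.0326). Rcan3 ILMN_2823269 lost its call without Scramble 2 (adjusted p = 0.113), Scramble 3 (0.124), siDJ-1 1 (0.111), siDJ-1 2 (0.0643) or siDJ-1 3 (0.144), with no filter on dim probes (0.108) or by an unmoderated t-test (0.113), with a range of 0.00549 to 0.144, and Nfatc4 without Scramble 2 (adjusted p = 0.0887), Scramble 3 (0.0680), siDJ-1 1 (0.111) or siDJ-1 3 (0.106), with no filter on dim probes (0.0722) or by an unmoderated t-test (0.0803), with a range of 0.00613 to 0.111. With array weights 7 probes of this list were higher, against 18.9% of all tested probes. The calls of Rcan2 and of Rcan3 ILMN_2732695 were kept in every alternative run.

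Of 35 tested probes for YAP and TEAD target genes and their factors, the group to which ANKRD1 is known to belong, 6 were lower and 9 were higher, with a median of 0.21 (0.11 to 0.28 over the alternatives), and 2 of the higher ones had passed through the siDJ-1 arrays alone, so nothing is read from these calls. The factor Tead4 itself was lower on ILMN_3157399 (-1.66, adjusted p = 0.00317) and ILMN_2599986 (-1.10, 0.00365) in every alternative, the former with values from -1.79 to -0.94. Amotl2, an angiomotin family member, was higher (1.14, 0.0141), as was the phosphatase PTPN14 on ILMN_2553305 (1.03, 0.0214). PTPN14 had 5 probes on the array, and its other probes are not described here. Amotl2 lost its call without siDJ-1 1 (adjusted p = 0.0545) or siDJ-1 3 (0.0530) or by an unmoderated t-test (0.0621), with a range of 0.000655 to 0.0621, and PTPN14 without Scramble 2 (adjusted p = 0.0591), siDJ-1 1 (0.0727) or siDJ-1 3 (0.0530) or by an unmoderated t-test (0.0804), with a range of 0.00281 to 0.0804. Their values ran from 0.65 to 1.30 and from 0.58 to 1.29. The count of lower probes was 3 without Scramble 3 or siDJ-1 3 and 2 without siDJ-1 1, and the count of higher ones was 4 without siDJ-1 1 or siDJ-1 3, while an unmoderated t-test gave 3 lower and 5 higher. Of all tested probes, 9.79%, 7.05% and 6.55% were lower without Scramble 3, siDJ-1 3 and siDJ-1 1, 7.78% and 8.14% were higher without siDJ-1 1 and siDJ-1 3, and the t-test gave 9.39% lower and 11.1% higher.

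TTN and LDB3 transcripts are spliced in several forms, so a list of splicing factors known to act on them or in muscle was read as well. Of its 18 tested probes, 3 were lower and 2 were higher, with a median of 0.08, which ran from -0.008 (without siDJ-1 3) to 0.20 (without siDJ-1 2) and was 0.04 without Scramble 1. Rbfox1 was lower on ILMN_1238309 (-1.71, adjusted p = 0.00383) with signals of 1431, 1393 and 1281 in Scramble and 556, 651 and 349 in siDJ-1 myotubes, groups far apart, and on ILMN_2719097, which was named after its value was seen and was detected on 2 Scramble arrays and 1 siDJ-1 array (adjusted p = 0.0494, without a size because most siDJ-1 values were at background). Rbfox2 was lower (-0.65, 0.0141), and both higher probes were those of Mbnl2, ILMN_3094013 (0.59, 0.00950) and ILMN_1254987 (0.58, 0.0116). The calls of Rbfox1 ILMN_1238309 and of Mbnl2 were kept in every alternative. The call of ILMN_2719097 was lost without Scramble 2 (adjusted p = 0.118), Scramble 3 (0.105), siDJ-1 1 (0.123), siDJ-1 2 (0.0704) or siDJ-1 3 (0.152), with no filter on dim probes (0.105) or by an unmoderated t-test (0.142), with a range of 0.0106 to 0.152, and that of Rbfox2 without siDJ-1 1 (adjusted p = 0.0545), with a range of 0.00557 to 0.0545 and values from -0.73 to -0.36. Without siDJ-1 1, 1 probe of this list was lower, against 6.55% of all tested probes. Splice forms themselves were not measured here.

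**Figure D4:**
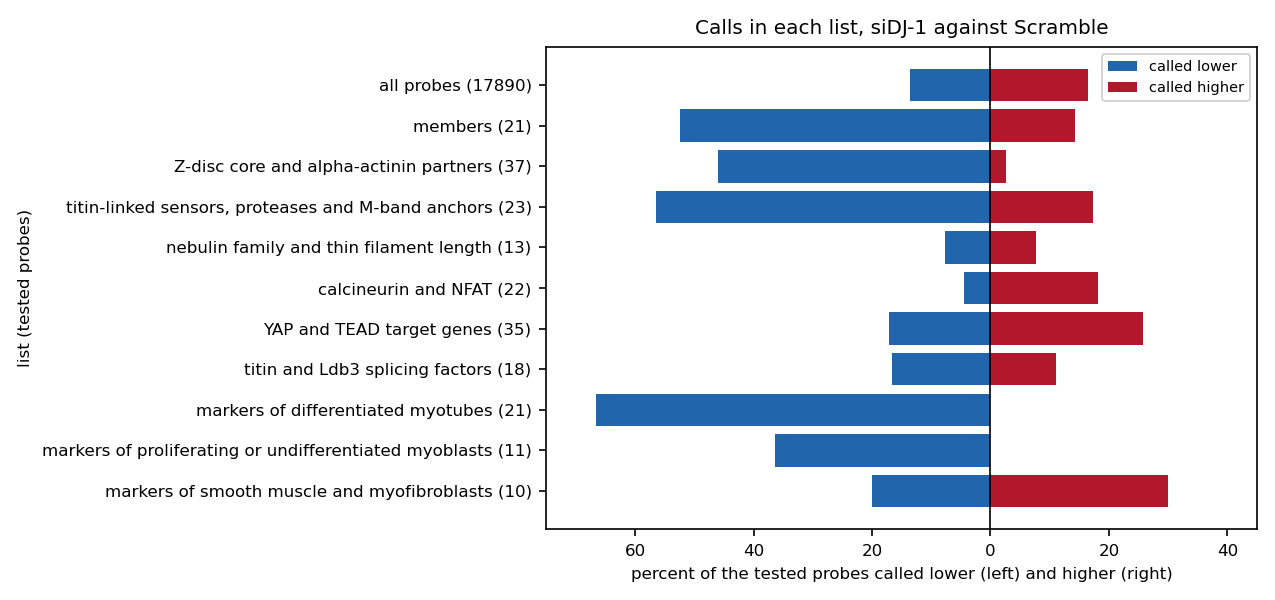
Percentage of tested probes called lower (to the left) and higher (to the right) after *Dj1* knockdown for all tested probes, the Z-disc and titin-linked genes, the pathway lists and the marker lists of myotubes, myoblasts and smooth muscle. Lists of adipocyte, cardiac and osteoblast or chondrocyte markers, with 1, 2 and 6 tested probes, are left out, and all tested probes stand at 13.6% lower and 16.5% higher.

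Markers of cell state were read beside the Z-disc genes. For differentiated myotubes, 14 of 21 tested probes were lower and the other 7 were not called, with a median of -0.63 (-0.74 to -0.54 over the alternatives), and all were detected on every array. Summed over these markers, normalized linear signal came to 235310.0, 229625 and 228134 for Scramble 1 to 3 and to 177263, 186721 and 164491 for siDJ-1 1 to 3. A probe of Acta1 gave the highest signal of this list, but signals of different probes do not rank transcripts. Myh1 was lower at -2.19 and -1.93 on ILMN_2865744 and ILMN_2740259 (adjusted p = 0.00284 and 0.00304) in every alternative, and Ckmt2 was at -1.40 and -1.38 on ILMN_2698052 and ILMN_2817864 (0.0201 and 0.0228). The Ckmt2 calls were lost without Scramble 3 (adjusted p = 0.0549), siDJ-1 1 (0.0565) or siDJ-1 3 (0.0530) or by an unmoderated t-test (0.0824) for the former (range 0.000378 to 0.0824) and without Scramble 3 (adjusted p = 0.0563), siDJ-1 1 (0.0675) or siDJ-1 3 (0.0626) or by an unmoderated t-test (0.0891) for the latter (range 0.000494 to 0.0891). The count of 14 became 9 without Scramble 3, 7 without siDJ-1 1, 8 without siDJ-1 3 and 7 by an unmoderated t-test, while 9.79%, 6.55%, 7.05% and 9.39% of all tested probes were lower in the same order.

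For proliferating or undifferentiated myoblasts, 4 of 11 tested probes were lower and the other 7 were not called, with a median of 0.13, which ran from -0.31 (with the strict filter) to 0.19 over the alternatives and was -0.06 without Scramble 1 and 0.05 without siDJ-1 3. Their summed signal was 6449, 7078 and 6385 in Scramble and 5488, 6150.4 and 5685 in siDJ-1 samples over all 17 probes, 6 of them untested, with the highest signal on a Cdk1 probe and Pax7 undetected. Of the 7, 4 had groups apart upward, as did 4741 of all 17890 tested probes, and these 4 are not named here. Limma called 1 higher without background correction, with a 75th percentile shift or with a trend in the prior variance. An unmoderated t-test also called 1, and 2 of 9 were called with the strict filter. Of all tested probes, 18.8%, 18.3% (20.3% with the shift and no background correction), 19.3%, 11.1% and 20.5% were higher in the same order. The lower probes were Id3 (-1.40, adjusted p = 0.00494), Myod1 (-0.90, 0.00317), Id1 (-0.57, 0.0260) and Ccnb1 (-0.57, 0.0161). Calls were lost for Id1 without Scramble 2 (adjusted p = 0.0710), Scramble 3 (0.0712), siDJ-1 1 (0.0696), siDJ-1 2 (0.0623) or siDJ-1 3 (0.0888), with no filter on dim probes (0.0578) or by an unmoderated t-test (0.0673), with a range of 0.00430 to 0.0888, and for Ccnb1 without siDJ-1 1 (adjusted p = 0.0585) or siDJ-1 3 (0.0556), with a range of 0.00105 to 0.0585. The value of Id3 ran from -1.59 to -0.70. Without siDJ-1 1 or siDJ-1 3, 2 probes of this list were lower, against 6.55% and 7.05% of all tested probes. What part differentiation state or cell composition had in the lower signal of the Z-disc genes was not tested.

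Several defining markers of other cell types were undetected. Of 10 tested probes for smooth muscle and myofibroblasts, 2 were lower, both of Acta2 (-0.63 on ILMN_2710354, adjusted p = 0.01001, and -0.62 on ILMN_2710353, 0.0118, the latter named after its value was seen), and 3 were higher, all of Smtn (1.33, 0.87 and 0.72, adjusted p = 0.00460, 0.00412 and 0.0126). The median was 0.15 (-0.24 to 0.24 over the alternatives, -0.02 without Scramble 1, 0.04 without Scramble 2, 0.24 without Scramble 3, 0.02 without siDJ-1 3, -0.16 with no filter and -0.24 with the strict filter), the sums were 78458, 89271 and 83580.1 in Scramble and 69080.4, 72061 and 62231 in siDJ-1 samples over all 15 probes, 5 of them untested, an Acta2 probe gave the highest signal, and a Myh11 probe was undetected. The third Smtn probe, ILMN_2955973, lost its call without siDJ-1 1 (adjusted p = 0.0517), with a range of 0.000207 to 0.0517, and the value of the first, ILMN_2621581, ran from 0.62 to 1.502. Of the cardiac list 2 probes were tested, with 1 lower (Myl4, -0.40, adjusted p = 0.0264) and a median of 0.14, its sums over all 12 probes, 10 of them untested, were 36092, 35569 and 35957 against 27007, 29644 and 25137, and Myl7, Nkx2-5, Nppa, Nppb, Ryr2 and Tnni3 were undetected. The Myl4 probe gave the highest signal, deposited at 33006, 36207 and 32424 in Scramble and 28058, 34387 and 24921 in siDJ-1 samples. The cardiac sums largely follow this probe. That median of 2 probes ran from -0.40 to 0.28 over the alternatives and was -0.01 without Scramble 2, 0.27 without Scramble 3, -0.05 without background correction, -0.07 with no filter and -0.40 with the strict filter. Without Scramble 3, 1 of the 2 was called higher, against 12.4% of all tested probes, and the Myl4 call was lost without Scramble 2 (adjusted p = 0.0626), Scramble 3 (0.0634), siDJ-1 1 (0.0931) or siDJ-1 3 (0.0848), with a 75th percentile shift in place of quantile normalization (0.431), with a 75th percentile shift and no background correction (0.157) or with no filter on dim probes (0.0612), with a range of 0.000215 to 0.431 and values from -0.47 to -0.12.

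The adipocyte list had 1 tested probe, Pparg, which was higher (1.06, adjusted p = 0.0264), with sums over all 8 probes, 7 of them untested, of 319.6, 177 and 272 in Scramble and 336, 368 and 428 in siDJ-1 samples, and Adipoq, Cfd, Lep and Plin1 undetected. The median over all 8 adipocyte probes with no filter was -0.09. The Pparg call was lost without Scramble 3 (adjusted p = 0.0600), siDJ-1 1 (0.0580), siDJ-1 2 (0.0622) or siDJ-1 3 (0.0914), with no filter on dim probes (0.0567) or by an unmoderated t-test (0.0938), with a range of 0.00219 to 0.0938 and values from 0.60 to 1.30. Of 6 tested probes for osteoblasts and chondrocytes, 1 was lower (Sox9, -0.41, adjusted p = 0.0188) and the other 5 were not called, with a median of -0.28 (-0.41 to 0.08 over the alternatives, -0.39 without Scramble 2, -0.18 without Scramble 3), sums of 3816, 3702 and 4033 against 2927, 3116 and 2903 over all 18 probes, 12 of them untested, and Runx2 and Sp7 undetected. Sox9, whose probe gave the highest signal of that list, lost its call without Scramble 3 (adjusted p = 0.0539), siDJ-1 1 (0.0782) or siDJ-1 3 (0.0644) or with a 75th percentile shift in place of quantile normalization (0.0834), with a range of 0.000782 to 0.0834. Without siDJ-1 2, 2 probes of that list were lower, against 10.7% of all tested probes.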

How the data were processed

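Arrays of 3 Scramble and 3 siDJ-1 samples of C2C12 myotubes were read, all on 1 Illumina chip. The authors deposited, for each probe and array, the mean intensity over beads, neither normalized nor background-subtracted, with the bead number and standard error. The deposited detection p-value compares a probe with the negative controls of its array. In R 4.3.3 with limma 3.58.1, background was corrected by normexp from the detection p-values with an offset of 16, then quantile normalization and log2 followed (neqc). The filter kept probes detected at p under 0.05 on 3 or more of the 6 arrays. Models were fitted by lmFit and moderated by eBayes, with Benjamini-Hochberg adjustment across every probe kept and a threshold of 0.05 for the adjusted p. Differences between probes of 1 gene were fitted and adjusted over all pairs in the same way. Intervals are 95% confidence intervals, and the 3 arrays per group limit the precision. An exact permutation test of 3 against 3 arrays cannot go below p = 0.1.

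The members and lists were chosen with earlier results of these data known. Named were every probe of the members, of Park7 and of 13 partner genes, up to 4 called probes of largest change per list with detection on all arrays of either group, and some of the probes most like the members over the arrays. The lists were the Z-disc core, titin-linked sensors, the nebulin family, calcineurin and NFAT, YAP and TEAD targets, splicing factors, and markers of myotubes, myoblasts, cardiac muscle, smooth muscle, adipocytes, and osteoblasts and chondrocytes. Trim55, Asap1 and Rbm20 matched no probe. Probes were renamed through RefSeq (GRCm38.p6) where their gene number or accession matched, as for 32345 of 45281 probes and 26 of the 31 listed ones. The fits were tested on simulated data, with a simulator that was revised after its earlier versions recovered too few changes, and the last version still gave more false calls than the nominal share, at dim probes. Choices were varied by taking no background correction, a 75th percentile shift in place of quantiles, with or without that correction, no filter, a strict filter (detection p under 0.01 on all 6 arrays), a trend in the prior variance, array weights, an ordinary t-test without moderation, omission of single arrays, blocking by replicate number, and gene means over probes.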

Additional observations from a re-analysis of the deposited data

How the results depend on the processing

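Of 332 recomputed values of the 21 listed probes, 270 kept their direction and their side of the threshold, 46 lost the call, 9 gained one and 7 changed direction. Park7 stayed called from -1.24 to -1.003, and with 1 array left out from -1.24 to -1.05. With no filter, 3519 of 45281 probes were called in place of 5387, and 7 listed probes were lower and 1 was higher. The cause of this drop was not tested. By an unmoderated t-test 7 listed probes were lower. With 1 array left out, between 2564 and 5290.0 probes were called in all. Of the listed probes, 6 to 12 were lower and 1 to 4 higher, so the upper ends lay above the 11 and 3 of the main fit. Of all tested probes, 6.55% to 13.5% were lower and 7.78% to 16% higher.

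As the mean of each gene's tested probes, 5 of 8 listed genes were lower and limma called 0 higher, with 0 at p under 0.05 before adjustment and 0 passing an unmoderated t-test. No share of all gene means stands beside these counts. By construction the gene mean averages probes that moved in opposite directions in TTN, LDB3 and MYOZ2. Of these, only TTN had probes called both ways. In CSRP3 all 3 tested probes were above zero, and the mean was 0.25 (adjusted p = 0.147). The TTN mean was 0.0357, which turned ILMN_2416670, ILMN_1223811, ILMN_3128792 and ILMN_2443220, the LDB3 mean was -0.48, which turned ILMN_2713622, and the MYOZ2 mean was -0.00168, which turned ILMN_1257860. TTN ILMN_1220329 ranged from -0.0539 to 0.18 with 1 array left out. Flnc ILMN_2618364 was at 0.0393 with a 75th percentile shift after normexp. The cause was not tested. The median of the listed probes was -0.30 and -0.33 with the shift, with and without background correction, and -0.16 with no filter, and that of all tested probes ran from 0.0003 to 0.07.

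Pairs of 1 gene that differed numbered 749 without background correction and 16 to 161 with 1 array left out. Scramble and siDJ-1 arrays of the same number were not paired (r of their deviations 0.05, 0.05 and 0.02), though all 6 arrays correlated best with their own number, a hint from the data alone. With the replicate block, all probes tested and called numbered 4350, and 29 pairs were called. Of the listed probes, 9 were lower and 2 higher, against 11.1% and 13.2% of all tested probes. The block ended the calls of ANKRD1 ILMN_2625451 (adjusted p = 0.0690), MYOZ2 ILMN_1234857 (0.0556) and CSRP3 ILMN_2789650 (0.0598). The 3 TTN pairs with ILMN_2744368 had 0.0543 with it. Among the other named probes the block also ended the calls of Actn2 ILMN_2797061, Actn3 ILMN_2708303, Ankrd2, Fhl2, Nbr1, Klhl40, Pdlim4, Rcan3 ILMN_2823269, Rbfox1 ILMN_2719097, Id1, Myl4, Sox9, Ckmt2 ILMN_2698052, Lyar, Zfp644 and Arl2bp (adjusted p from 0.0519 to 0.0932). Leaving out arrays for the pairs, and all alternatives for partner, list and similar probes, were chosen after seeing the data. What signal over background limits is the size of changes in dim probes, as for MYOZ1 (-2.31 to -0.93), MYOT (-1.62 to -0.66) and TTN ILMN_2744368, and the 10 untested probes, NEB among them, show nothing about change.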
